A study of Mus musculus with 21 samples.

Results

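The 9 genes described here are regulators of the luminal and hormone-sensing state of the mammary epithelium: the hormone receptors *Esr1*, *Pgr* and *Prlr*, the receptor cofactors *Foxa1* and *Cited1*, the signal transducers *Stat5a* and *Stat5b*, and the transcription factors *Elf5* and *Tfap2a*. They were taken by symbol from a list that was chosen with earlier results of these data known. All 9 were present among the 49652 genes counted and passed the filter on low counts that left 19315 genes for testing. RNA was sequenced from 21 mammary tumors of virgin female mice. The 9 control tumors came from FloxNeoNeuNT;MMTV-CreNLST mice, of which 7 also carried Gata4(loxP/+) and 2 did not, and the 12 RhoC tumors came from R26(RhoC/+);FloxNeoNeuNT;MMTV-CreNLST mice. Every tumor therefore carried NeuNT, an activated form of the receptor tyrosine kinase ErbB2 that was placed in the endogenous *Erbb2* locus behind a stop cassette, and MMTV-CreNLST, a mammary Cre transgene that the study describes as apparently active in fewer cells, or at a lower level, than other MMTV-Cre lines. The RhoC cohort added a Cre-dependent wildtype RhoC, a small GTPase, at Rosa26. The controls came from 9 mice and the RhoC tumors from 8. Mouse P497 gave 4 of the RhoC tumors and mouse N9255 gave 2, and tumors that share a mouse are not independent samples. The age of each mouse was not given in the sources used here. The study describes tumors forming at younger ages in RhoC mice than in controls, so age and cohort cannot be told apart.

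Estrogen receptor alpha (*Esr1*) and progesterone receptor (*Pgr*) are nuclear receptors that mark the hormone-sensing luminal cells of the mammary gland. FOXA1 is a pioneer factor that opens chromatin for estrogen receptor alpha, *Pgr* is a classical target of that receptor, and CITED1 is a coactivator that binds it. Prolactin acts through the receptor encoded by *Prlr* and the kinase JAK2 on STAT5A and STAT5B, which together with the ETS factor ELF5 drive the alveolar program and milk protein genes. TFAP2A is an AP-2 factor of epithelial and neural crest cells.

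Total counts lay between 47309780 and 100741339 per tumor, and the cohorts overlapped. Levels are given as CPM, read counts scaled to library size with edgeR's TMM factors. In a log2 fold change 1 unit is a doubling, and positive values are higher in the RhoC cohort. *Rhoc* ranged from 25.98 to 172 CPM in control tumors, and the RhoC tumors covered 22.8 to 148 CPM. The edgeR estimate was 0.19 ± 0.34 (SE) on the log2 scale, at an adjusted p of 0.774, so the engineered gene did not separate the cohorts in these counts. *Erbb2* ranged from 57.9 to 2725 CPM in controls and from 256 to 1851 in RhoC tumors (adjusted p = 0.370 by edgeR). All 10 genes of a luminal epithelium list passed the filter, and their summed level was 1693 to 6163 CPM in controls and 1295 to 4210 in RhoC tumors. Every tumor therefore held RNA of genes on this list, though single genes ran far lower, *Muc1* down to 0.812 CPM. The sum does not show how much of that RNA came from luminal cells. The summed level of 8 basal epithelial genes, including the keratins *Krt5* and *Krt14*, was 136 to 3059 CPM in controls and 75.0 to 17234 in RhoC tumors. The highest summed skeletal muscle (4005 CPM), adipocyte (343 CPM) and endothelial (690 CPM) genes were all in the control N-17. Among controls N-17 was also the highest in *Esr1* and *Pgr* and the second highest in *Foxa1*, *Cited1* and *Stat5a*, and the part of other tissue in those levels was not tested. Without N-17 none of the 9 regulators was called by edgeR, and 3 had an unadjusted p under 0.05, beside 20.5% of all genes tested in that fit. Since the tumors were bulk tissue, fewer cells of a type and less RNA per cell cannot be told apart.

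None of the 9 regulators passed an adjusted p of 0.05 in edgeR's quasi-likelihood test (TMM-normalized counts, Benjamini-Hochberg adjustment), where 43 of all tested genes (0.223%) did. At an unadjusted p under 0.05, 2 regulators, *Esr1* and *Foxa1*, or 22.2%, passed, beside 20.5% of all tested genes, a share near that background. DESeq2's Wald test called 1 regulator, *Foxa1*, beside 6.24% of all genes. The median log2 fold change was 0.28 over the 9 genes and -0.0052 over all tested genes. Of the 9 estimates 7 were above 0 and 2, those of *Elf5* and *Stat5a*, were below.

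**Figure D1:**
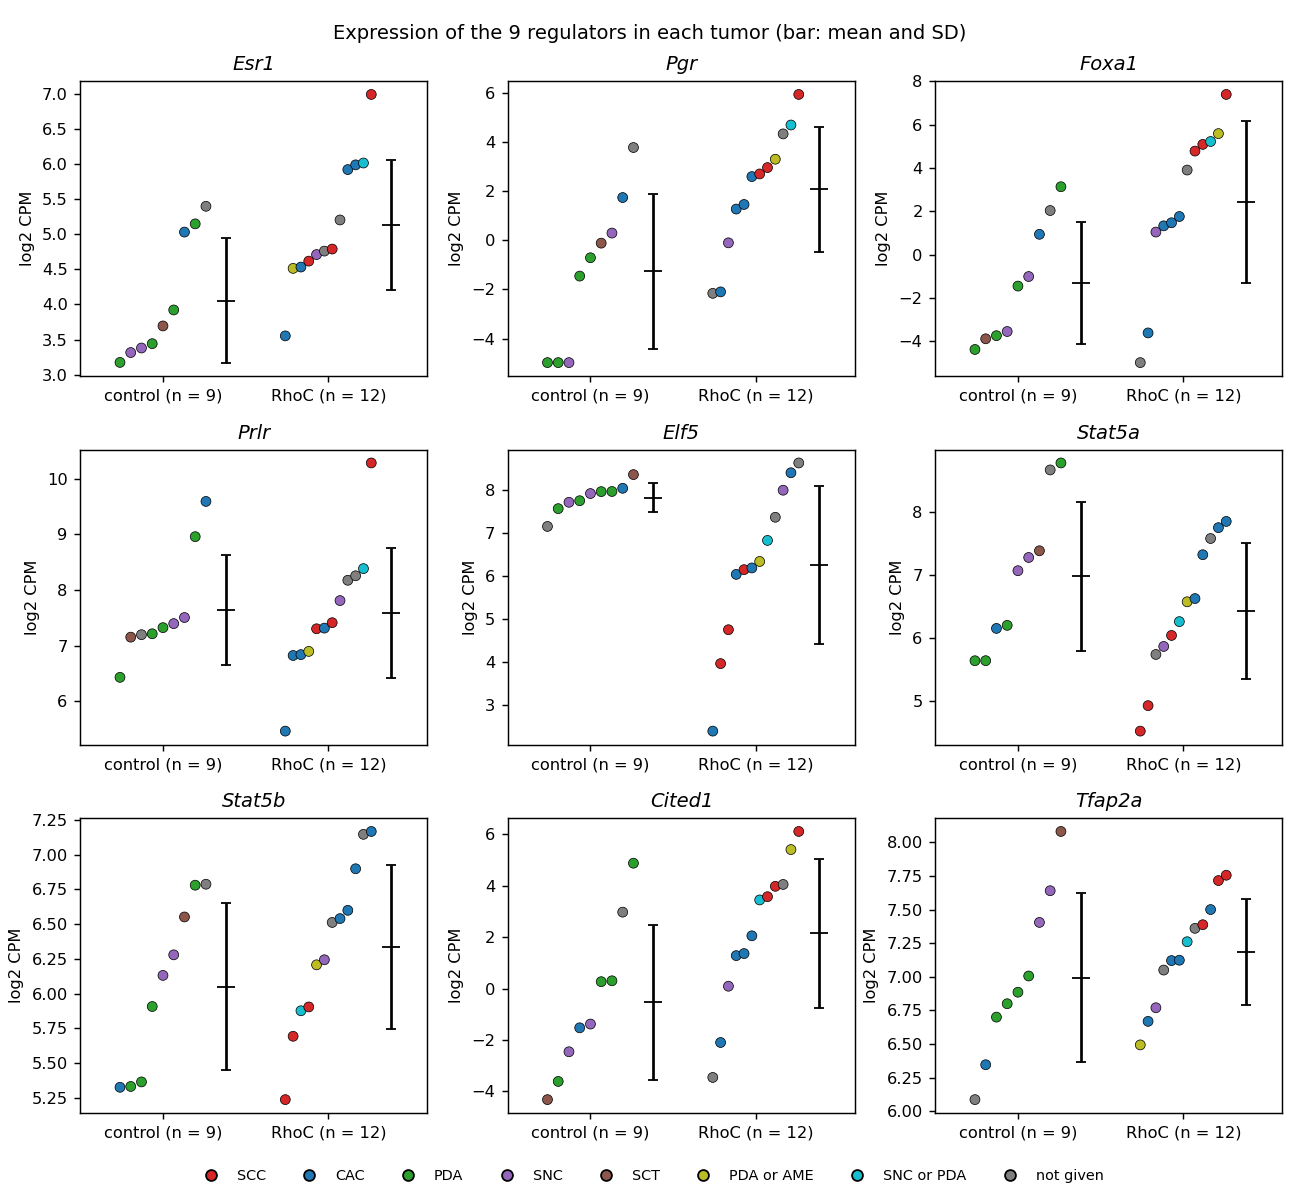
Expression of the 9 regulators as log2 CPM (y axis) in each of 9 control and 12 RhoC tumors (x axis), with points ordered by level, colored by the histology listed by the study, and a bar for mean and SD. *Foxa1*, *Pgr* and *Cited1* spread over many doublings in both cohorts, *Elf5* is tight in controls and wide in RhoC tumors, and *Stat5b* and *Tfap2a* vary least in RhoC tumors. SCC, squamous cell carcinoma; CAC, complex adenocarcinoma; PDA, poorly differentiated adenocarcinoma; SNC, solid nodular carcinoma; SCT, spindle cell tumor; AME, adenomyoepithelioma.

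*Esr1* (ENSMUSG00000019768.16, GRCm38 chr10:4611593-5005614) was counted at 8.99 to 42.1 CPM in control tumors, with a median of 12.9. In RhoC tumors it was counted at 11.7 to 127 CPM, with a median of 27.3. The cohorts overlapped, but 11 of 12 RhoC tumors lay above the control median and only R-10 lay below it. Among controls the highest levels were in N-17 (42.1 CPM), N-8 (35.4) and N-4 (32.6), and the other 6 lay at or below 15.1. Mean levels were 42.9 ± 31.9 CPM (SD, n = 12) in RhoC tumors and 19.8 ± 13.02 CPM (SD, n = 9) in controls. The log2 fold change was 1.12 (SE 0.41, adjusted p = 0.143 by edgeR). A 2-sided exact permutation of the cohort labels on log2 CPM gave p = 0.0155, and p = 0.0702 once the tumors of each mouse were averaged.

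*Pgr* (ENSMUSG00000031870.16, chr9:8899833-8968611) had the lowest median FPKM of the 9 genes in both cohorts. In controls it ran from no counts in N-3, N-6 and N-7 to 13.6 CPM in N-17, with a median of 0.579, and a count of 0 in those tumors allows up to 0.0434 to 0.0499 CPM. In RhoC tumors it ran from 0.192 to 60.7 CPM with a median of 6.21. Both groups held low tumors: R-7 and R-21 were at 0.202 and 0.192 CPM, and 1 control, N-17, exceeded the RhoC median. Means were 11.9 ± 17.3 CPM (SD, n = 12) and 2.21 ± 4.39 CPM (SD, n = 9), and edgeR gave a log2 fold change of 2.43 ± 1.18 (SE) with an adjusted p of 0.248. Without N-17 the estimate was 3.92 (adjusted p = 0.103 by edgeR), and without R-14 it was 1.75 (adjusted p = 0.404 by edgeR). The exact permutation test gave p = 0.0157 over tumors and p = 0.0476 over mice.

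*Foxa1* (ENSMUSG00000035451.7, chr12:57540628-57546916) had the largest estimate of the 9 genes in the edgeR fit of all tumors. *Pgr* exceeded it by voom with mouse as a random effect (3.70 against 3.38) and with the replicate number as a block (5.44 against 3.49). Control levels were 0.0166 to 8.76 CPM with a median of 0.336, resting on 3 counts or fewer in N-1, N-3 and N-6. In RhoC tumors the range was from no counts in R-21 to 168 CPM in R-14, and the median was 9.16. No control reached the RhoC median, and 10 of 12 RhoC tumors lay above the control median, the exceptions being R-21 and R-7. The means were 28.4 ± 47.1 CPM (SD, n = 12) against 1.74 ± 2.96 CPM (SD, n = 9), and the log2 fold change was 4.03 (SE 1.36, adjusted p = 0.126 by edgeR). DESeq2 gave the same log2 fold change of 4.03 with an adjusted p of 0.00882. When 1 tumor was left out, edgeR's estimate ran from 3.17 without R-14 to 5.04 without N-15. With only the 7 Gata4(loxP/+) controls, the log2 fold change was 6.14 and edgeR's adjusted p was 0.0495, in a fit that called 2.22% of all genes. No RhoC tumor carried Gata4(loxP/+), so in this fit that allele and the cohort cannot be told apart. That fit leaves out N-15, the control with the most *Foxa1*, and N-17, with 4.08 CPM. By exact permutation p was 0.0230 over tumors and 0.0592 over mice.

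*Cited1* (ENSMUSG00000051159.16, chrX:102247381-102252181) was at 0.0181 to 29.4 CPM in controls, with a median of 0.352, and N-8 and N-17 were its highest controls. RhoC tumors held 0.0591 to 69.3 CPM, the median being 7.51. The log2 fold change was 1.71 (SE 1.16, adjusted p = 0.407 by edgeR), and the exact permutation p was 0.0531 over tumors and 0.125 over mice. With 1 tumor left out the estimate ran from 1.12 without R-14 to 3.41 without N-8, and the exact permutation p ran from 0.0153 to 0.107, under 0.05 in 5 of 21 fits.

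Leaving out the 4 tumors of mouse P497 lowered *Esr1* to a log2 fold change of 0.59, *Pgr* to 1.37, *Foxa1* to 2.81 and *Cited1* to 1.13, and none of the 9 genes then had an unadjusted p under 0.05 by edgeR. In that fit 11.6% of all tested genes had one, against 20.5% with every tumor kept. R-14, from that mouse, held the highest level of 5 of the 9 genes among all 21 tumors: *Esr1*, *Pgr*, *Foxa1*, *Cited1* and *Prlr*. The unadjusted exact permutation test was under 0.05 for *Esr1*, *Pgr*, *Foxa1* and *Elf5* over tumors, as it was for 17.8% of all tested genes. Over mouse averages it was under 0.05 for *Pgr* and *Elf5*, beside 10.5% of all tested genes, and not for *Esr1* (p = 0.0702) or *Foxa1* (p = 0.0592).

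**Figure D2:**
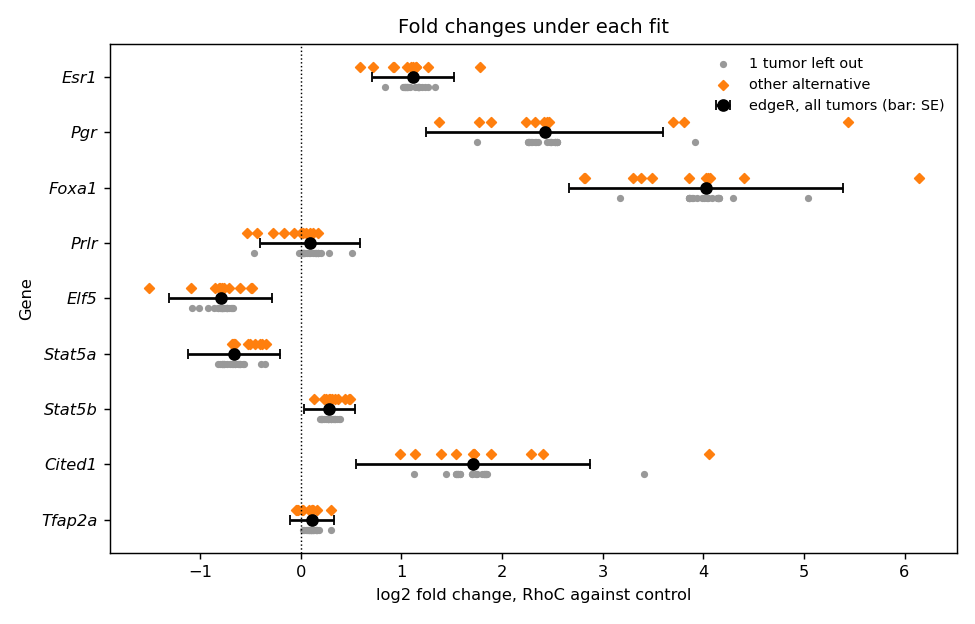
Log2 fold change of RhoC against control tumors (x axis) for each of the 9 genes (y axis). Black points are the edgeR estimates with SE bars, gray points leave out 1 tumor each, and orange diamonds are the 11 other alternatives. Estimates for *Foxa1*, *Pgr*, *Cited1* and *Esr1* remain above 0 while moving by up to several doublings, and those for *Prlr* and *Tfap2a* fall on both sides of 0.

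*Foxa1*, *Pgr* and *Cited1* varied together across tumors. In R-2, R-6, R-13, R-14, R-15 and R-18 all 3 genes were above their RhoC medians: *Foxa1* was 14.95 to 168 CPM, *Pgr* 6.44 to 60.7 and *Cited1* 10.9 to 69.3. In R-7 and R-21 all 3 were at or below 0.202 CPM. The remaining RhoC tumors, R-1, R-10, R-12 and R-16, were intermediate, with *Foxa1* at 2.03 to 3.36 CPM. Over the 12 RhoC tumors Pearson's r of log2 CPM was 0.98 for *Foxa1* and *Cited1* and 0.94 for both *Pgr* with *Foxa1* and *Pgr* with *Cited1*. Among the 9 controls these values were 0.46, 0.50 and 0.36. Over all 21 tumors they were 0.82, 0.81 and 0.73, as descriptions of tumors that share mice, libraries of unequal depth and mixed cell content. N-8, with 29.4 CPM of *Cited1* and 0.336 CPM of *Foxa1*, stood off this relation. For *Esr1*, r with *Pgr* was 0.24 in RhoC tumors, 0.69 in controls and 0.60 over all 21, and r with *Cited1* was 0.17, 0.57 and 0.49. With *Foxa1* the values of *Esr1* were 0.20, 0.43 and 0.47. The summed basal epithelial genes were at 17234, 12657 and 5968 CPM in R-6, R-13 and R-14 but 914 in R-2, 724 in R-15 and 195 in R-18. They were at 4560 CPM in R-12, which had 2.75 CPM of *Foxa1*, and their r with *Foxa1* over all tumors was 0.46; their part in the levels of the trio was not tested.

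**Figure D3:**
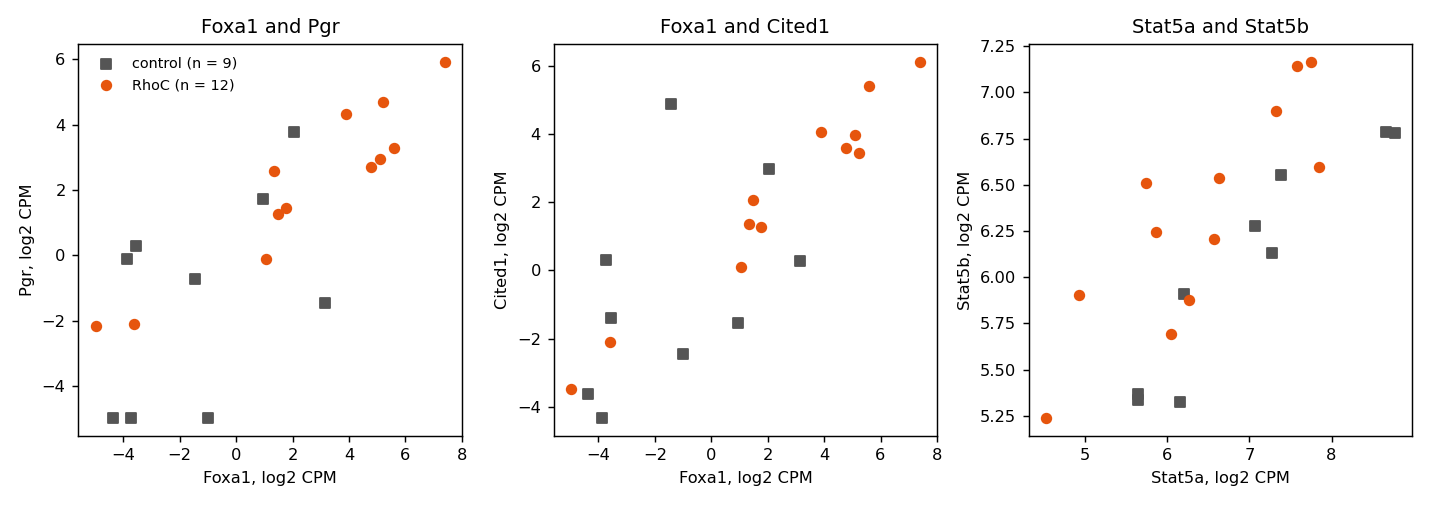
Pairs of genes as log2 CPM on both axes, with gray squares for 9 control and orange circles for 12 RhoC tumors. RhoC tumors lie along a line for *Foxa1* with *Pgr* and with *Cited1*, with R-14 at the top right, control N-8 lies above the *Cited1* relation, and *Stat5a* and *Stat5b* rise together in both cohorts.

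Because these 3 genes varied together, the 250 bases before their RefSeq transcription starts (GRCm38.p6, gene strand, 5′ to 3′, taking for each gene the start nearest to its annotated 5′ end) are printed, with matches to the searched motifs in capitals. They are chr12:57546112-57546361 (minus strand) for *Foxa1*, chr9:8899583-8899832 (plus strand) for *Pgr* and chrX:102252182-102252431 (minus strand) for *Cited1*. The *Foxa1* window lies mainly in an intron of an annotated transcript that begins farther upstream, and the other windows lie outside annotated exons.
Foxa1: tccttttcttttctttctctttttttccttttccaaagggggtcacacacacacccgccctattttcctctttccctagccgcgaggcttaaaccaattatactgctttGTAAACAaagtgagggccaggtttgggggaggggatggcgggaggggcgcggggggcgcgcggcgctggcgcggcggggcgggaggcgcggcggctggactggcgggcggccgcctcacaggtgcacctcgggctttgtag
Pgr: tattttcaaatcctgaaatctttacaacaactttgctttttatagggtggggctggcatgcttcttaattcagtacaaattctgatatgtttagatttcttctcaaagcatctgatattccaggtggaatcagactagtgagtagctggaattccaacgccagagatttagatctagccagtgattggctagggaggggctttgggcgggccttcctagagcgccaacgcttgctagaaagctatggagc
Cited1: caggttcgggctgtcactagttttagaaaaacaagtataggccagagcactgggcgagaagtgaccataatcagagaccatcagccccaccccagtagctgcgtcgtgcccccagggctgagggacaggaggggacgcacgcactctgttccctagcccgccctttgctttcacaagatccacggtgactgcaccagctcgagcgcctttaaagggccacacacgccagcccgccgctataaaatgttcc
The 7 motifs searched on both strands were the estrogen response element GGTCANNNTGACC, the nuclear receptor hexamer AGGTCA, the STAT palindrome TTCNNNGAA, the AP-2 palindrome GCCNNNGGC, the forkhead core TGTTTAC, the ETS core CCGGAAG and the GATA core AGATAA. In windows of 300 bases, 250 before and 50 after the start, they occur in 0.0700%, 16.3%, 8.30%, 16.6%, 3.65%, 8.86% and 11.2% of 32851 RefSeq promoters, in that order. An estrogen response element also counts as a hexamer where the flanking base completes AGGTCA. *Foxa1* held a forkhead core, GTAAACA on the gene strand, at 141 to 135 bases before the start, and *Pgr* and *Cited1* held none of the 7 in this window. At the starts nearest to the annotated 5′ ends, *Esr1* held an AP-2 palindrome, GCCAGAGGC, and *Stat5a* a hexamer, while *Prlr*, *Elf5*, *Stat5b* and *Tfap2a* held none. Other RefSeq starts of *Esr1*, *Prlr*, *Stat5a*, *Stat5b* and *Cited1*, not printed here, also held matches. Another start of *Cited1* held a hexamer and an AP-2 palindrome. GC content of the 300-base windows was 62.3% for *Foxa1*, 43.7% for *Pgr* and 59.7% for *Cited1*, beside a median of 52.7% over all promoters.

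**Figure D4:**
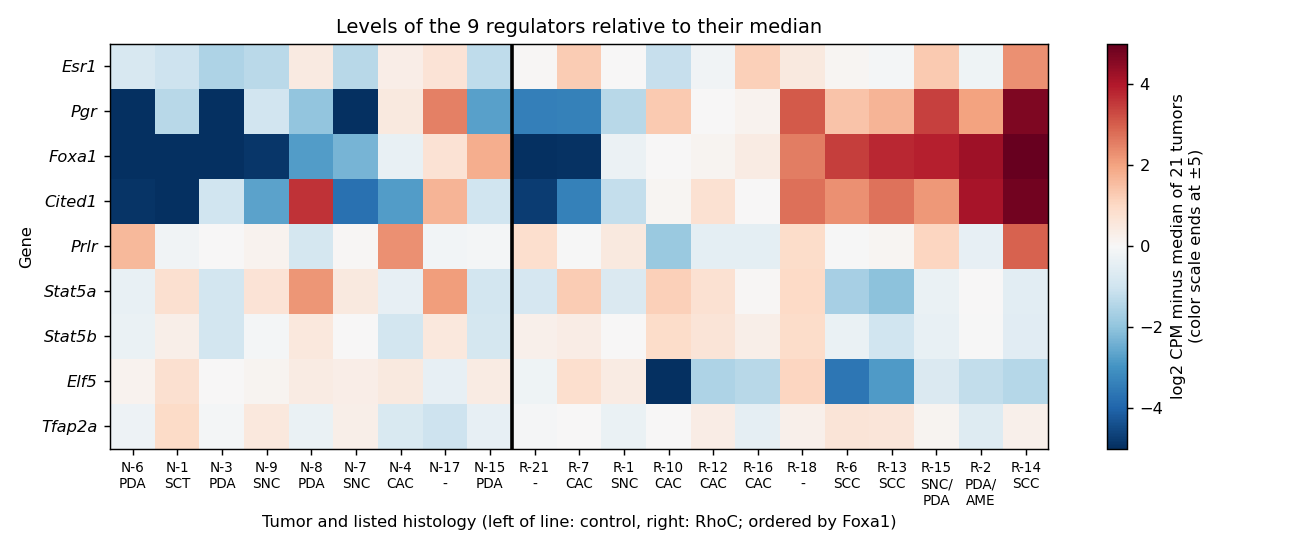
Log2 CPM minus the median of the 21 tumors (color, red above and blue below, ending at 5 doublings either way) for each of the 9 genes (rows) in each tumor (columns), with controls left of the line and tumors ordered by *Foxa1* within each cohort. The 6 RhoC tumors at the right are high in *Foxa1*, *Pgr* and *Cited1*, R-21 and R-7 are low in all 3, and *Elf5* is lowest in R-10, R-6 and R-13.

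*Elf5* (ENSMUSG00000027186.15, chr2:103411688-103450989) had the narrowest spread of log2 CPM of the 9 genes among controls. In controls it was 143 to 331 CPM with a median of 244. In RhoC tumors it was 5.22 to 399 CPM and the median was 77.3. All 9 controls exceeded the RhoC median, and 3 RhoC tumors, R-18 (399 CPM), R-7 (341) and R-1 (257), exceeded the control median. The lowest were R-10 (5.22 CPM), R-6 (15.6) and R-13 (27.0). Mean levels were 135 ± 130 CPM (SD, n = 12) in RhoC tumors and 234 ± 52.4 CPM (SD, n = 9) in controls. On the log2 CPM scale the SD was 1.85 in RhoC tumors and 0.34 in controls. The edgeR log2 fold change was -0.80 (SE 0.51, adjusted p = 0.381), while the difference of mean log2 CPM was -1.58, with an exact permutation p of 0.0164 over tumors and 0.0146 over mice. The estimate was -1.51 by voom and -0.49 without the squamous cell carcinomas. The summed milk protein genes were at 144, 417 and 1097 CPM in R-10, R-6 and R-13 and at 82273 CPM in R-18, and their r with *Elf5* over the 21 tumors was 0.75. The summed fibroblast genes were at 296 to 7298 CPM in controls and 1467 to 11485 in RhoC tumors, and their r with *Elf5* was -0.52, beside -0.45 for the summed basal genes; the part of either in the level of *Elf5* was not tested.

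*Prlr* (ENSMUSG00000005268.20, chr15:10177414-10349180) overlapped fully between cohorts. It was 86.2 to 773 CPM in controls, with a median of 160, and 44.1 to 1249 CPM in RhoC tumors (median 165). The log2 fold change was 0.094 (SE 0.50, adjusted p = 0.929 by edgeR; exact permutation p = 0.902). The estimate was -0.47 without R-14, which held the highest level, and -0.020 without N-8. Within RhoC tumors *Prlr* and *Esr1* had an r of 0.76, against 0.11 among controls. *Prlr* overlaps the annotated gene *Gm21973* on the same strand, so reads in the shared part may have been lost to counting.

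*Stat5b* (ENSMUSG00000020919.11, chr11:100780731-100850724) and *Stat5a* (ENSMUSG00000004043.14, chr11:100859351-100885169) lie side by side, with 8.63 kb between them, and the near edge of *Stat5b* lies 2.34 Mb from the end of *Erbb2*. *Stat5a* was 49.8 to 437 CPM in controls, with a median of 134, and 23.0 to 230 in RhoC tumors (median 85.9). The 2 highest tumors were the controls N-8 (437 CPM) and N-17 (405), and the 2 lowest the squamous R-13 (23.0) and R-6 (30.4). *Stat5b* was 40.1 to 110 CPM in controls, with a median of 70.0, and 37.7 to 144 in RhoC tumors (median 83.5). Log2 fold changes were -0.67 (SE 0.46, adjusted p = 0.412 by edgeR) for *Stat5a* and 0.28 (SE 0.25, adjusted p = 0.536) for *Stat5b*. The paralogs rose and fell together, with r of 0.77 over all tumors, 0.94 in controls and 0.84 in RhoC tumors. In N-8 and N-17 *Stat5a* stood 2.20 and 2.09 log2 units above its median, and *Stat5b* 0.54 in each. The median of 20 neighbouring genes within 0.25 Mb was -0.027 and -0.21 there. *Med1*, a gene close to *Erbb2* on this chromosome that was singled out after its values were seen, was at 6397 CPM in N-8, 4332 in N-9 and 3042 in N-17, and at 116 to 268 CPM in the other tumors. In N-9 *Stat5a* was at 0.70 and *Stat5b* at -0.11 relative to their medians. The part of *Med1* in the *Stat5a* levels was not tested. *Stat5a* overlaps *Stat3* on the opposite strand, and *Stat3* was at 0.81 log2 units relative to its median in N-8 and at -0.23 in N-17.

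*Tfap2a* (ENSMUSG00000021359.16, chr13:40715302-40738376) was 67.9 to 271 CPM in controls, with a median of 118, and 90.0 to 216 in RhoC tumors (median 146). The log2 fold change was 0.11 (SE 0.22, adjusted p = 0.795 by edgeR; exact permutation p = 0.405). The spindle cell tumor N-1 was highest and N-17 lowest. Over the 21 tumors its r with the summed basal epithelial genes was 0.66, and its r was -0.67 with the summed B and plasma cell genes, -0.64 with macrophage, -0.53 with endothelial and -0.52 with T cell genes. The part of these cell types in the level of *Tfap2a* was not tested. Antisense genes overlap it, but their median counts were 9 to 25 per tumor, against 3869 or more for *Tfap2a*.

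Between genes, levels were compared per length with the deposited FPKM. In controls the order of medians was *Elf5* (70.3 FPKM), *Tfap2a* (25.0), *Stat5a* (18.6), *Stat5b* (12.4), *Prlr* (11.2), *Esr1* (1.24), *Cited1* (0.197), *Foxa1* (0.101) and *Pgr* (0.0840). Among neighbours in this order the ranges of *Prlr* and *Esr1* alone did not overlap. In RhoC tumors the order was *Tfap2a* (30.4 FPKM), *Elf5* (22.3), *Stat5b* (15.01), *Prlr* (11.9), *Stat5a* (11.9), *Cited1* (4.21), *Foxa1* (2.74), *Esr1* (2.61) and *Pgr* (0.899), and all neighbours overlapped. *Elf5* exceeded *Tfap2a* in 9 of 9 controls, whereas *Tfap2a* exceeded *Elf5* in 6 of 12 RhoC tumors.

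The histology that the study listed is not in the sample labels, so levels by histology are descriptions. None was listed for N-17, R-18 and R-21. The tumors listed as squamous cell carcinoma were R-6 from mouse N9255 and R-13 and R-14 from P497, and these 3 had *Foxa1* at 27.4, 34.0 and 168 CPM. They had *Elf5* at 15.6, 27.0 and 71.2 CPM and *Stat5a* at 30.4, 23.0 and 65.8 CPM, low among the 21 tumors for *Elf5* and for *Stat5a* in R-6 and R-13. The 4 complex adenocarcinomas of the RhoC cohort had *Foxa1* at 0.0504 to 3.36 CPM and *Stat5a* at 98.7 to 230 CPM, without overlap with the squamous tumors in either gene. *Elf5* did not follow that division, since the complex adenocarcinomas R-10 and R-7 were at 5.22 and 341 CPM. The complex adenocarcinoma among the controls, N-4, had 1.89 CPM of *Foxa1* and 265 CPM of *Elf5*. The 4 poorly differentiated adenocarcinomas of the controls ranged from 0.0166 to 8.76 CPM of *Foxa1*. Tumors of the same mouse differed: in P497 *Foxa1* was 34.0, 168, 37.3 and 3.36 CPM in R-13, R-14, R-15 and R-16, and in N9255 it was 27.4 and 0.0504 CPM in R-6 and R-7.

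Pathway genes around the 9 regulators were taken from 9 lists of 99 genes, of which 92 were tested. None passed an adjusted p of 0.05 in edgeR's test, and 21 (22.8%) had an unadjusted p under 0.05, near the 20.5% of all genes. DESeq2 called 6 of the 92 (6.52%), near its 6.24% over all genes: *Ccnd1*, *Tnfsf11*, *Socs1*, *Esrra*, *Foxa3* and *Muc1*. Of these *Socs1*, an inhibitor of cytokine signaling, was at -0.11 on the log2 scale (SE 0.80, adjusted p = 0.951) by edgeR and 2.08 (adjusted p = 0.00234) by DESeq2, and its highest level, 23.6 CPM, was in N-15. Without N-15 edgeR gave *Socs1* 2.27 (adjusted p = 0.0436).

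Among 11 tested estrogen receptor targets, 2 passed unadjusted, both higher, and the median log2 fold change was 0.28. *Ccnd1*, encoding cyclin D1, was at 1000 ± 372 CPM (SD, n = 12) in RhoC and 512 ± 291 CPM (SD, n = 9) in control tumors, and edgeR's estimate was 0.97 ± 0.29 (SE) on the log2 scale with an adjusted p of 0.0993. *Rerg*, a RAS-like inhibitor of growth, had the smallest p of those with a lower estimate (-0.69, adjusted p = 0.493). Of 14 estrogen receptor cofactors 1 passed unadjusted, with a higher estimate, and the median was -0.072. *Xbp1*, a factor of the unfolded protein response, was at -0.69 (adjusted p = 0.268).

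Of 6 tested progesterone receptor targets, 3 passed unadjusted higher and 1 lower, with a median log2 fold change of 1.72. Their summed level went the other way, with a median of 101 CPM in controls and 91.1 CPM in RhoC tumors, and its r with *Pgr* over the 21 tumors was -0.21. The 2 genes with lower estimates held most of that sum, *Fkbp5* alone averaging 96.4 CPM in controls and 50.7 CPM in RhoC tumors. Each of the 4 with higher estimates averaged 16.2 CPM or less in either cohort, so the sum says little about them. *Tnfsf11*, which encodes the paracrine signal RANKL, was at 0.0542 to 2.71 CPM in controls and 0.103 to 16.1 CPM in RhoC tumors (log2 fold change 2.37, SE 0.82, adjusted p = 0.130 by edgeR). *Fkbp5*, a chaperone induced by steroid receptors, was at -0.93 (adjusted p = 0.210). *Tnfsf11* was also the gene most like *Foxa1* over the 21 tumors among those with a mean log2 CPM over 0, with r of 0.87, and R-14 held the highest level of both.

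Prolactin and STAT pathway genes had a median of 0.13 over 14, with 2 higher unadjusted and none lower. *Akt1*, a growth kinase, was at 0.42 (adjusted p = 0.159 by edgeR). The 10 milk genes had a median log2 fold change of 2.49, with 4 higher unadjusted. *Csn1s2b*, a casein, was at 5.86 (SE 1.78, adjusted p = 0.100) and *Csn3*, kappa casein, at -1.06 (adjusted p = 0.470). The summed milk genes overlapped fully, at 936 to 20278 CPM in controls and 144 to 82273 CPM in RhoC tumors, and their medians were 4666 and 4710 CPM. The highest RhoC sums were in R-18 (82273 CPM) and R-7 (43359).

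Of 13 other nuclear receptors 2 were higher and 2 lower unadjusted. *Esrra*, the estrogen-related receptor alpha, was at 25.1 ± 8.19 CPM (SD, n = 12) against 12.4 ± 5.30 CPM (SD, n = 9) (log2 fold change 1.01, SE 0.26, adjusted p = 0.0714 by edgeR), and *Vdr*, the vitamin D receptor, was at -0.86 (adjusted p = 0.177). Of 8 tested relatives of the 9 genes 2 were higher and 1 lower unadjusted. *Foxa3*, a relative of *Foxa1*, was at 3.19 (SE 1.18, adjusted p = 0.153), and *Ehf*, an ETS factor related to *Elf5*, at -1.02 (SE 0.38, adjusted p = 0.154).

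All 6 luminal progenitor genes had negative estimates and none passed unadjusted, with a median of -0.28. *Mfge8*, a milk fat globule protein, was at -0.38 (adjusted p = 0.716 by edgeR). Of the 10 luminal epithelial genes 9 had negative estimates. *Muc1*, an apical mucin, was the 1 that passed unadjusted, at -2.17 (SE 0.58, adjusted p = 0.0773), and *Krt7*, a luminal keratin, had the positive estimate of 0.55 (adjusted p = 0.590).

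Genes most like each regulator over the 21 tumors were found by Pearson's r of log2 CPM, given as a description. *Pwwp3b* was among the nearest 2 for *Foxa1* (r 0.86), *Cited1* (0.77) and *Pgr* (0.75), and it was itself among the 43 genes called, at 0.181 to 2.45 CPM in controls and 0 to 202 CPM in RhoC tumors (log2 fold change 5.74, adjusted p = 0.0480 by edgeR). Its highest levels, 202 CPM in R-14 and 109 in R-15, were both from mouse P497. The adjusted p of *Pwwp3b* was 0.155 with counts summed by mouse, 0.422 by voom with mouse as a random effect and 0.222 without P497, and 7.78e-08 by DESeq2. *Acss1*, an acetyl-CoA synthetase of mitochondria, and *Ceacam1*, an adhesion molecule, were nearest to *Elf5*, with r of 0.93 and 0.90. For *Tfap2a* they were *Rpl21* (0.86) and *Tmem63b* (0.81), and for *Esr1* *Tlcd4* (0.76) and *Zfp608* (0.74). *Sv2c* (0.74) was the other gene for *Pgr* and *Paqr8* (0.77) for *Cited1*. The nearest genes reached 0.71 (*Cd164*) and 0.70 (*Cab39l*) for *Prlr*, 0.76 (*Klhl29*) and 0.74 (*Gm38056*) for *Stat5a*, and 0.71 (*Gm23833*) and 0.69 (*Airn*) for *Stat5b*. By rank correlation (Spearman's rho) *Cd164* and *Cab39l* were at only 0.36 and 0.46 with *Prlr*, the lowest of the pairs named here.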

How the data were processed

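Tumor RNA was isolated with an RNeasy kit and made into stranded total RNA libraries after ribosomal RNA depletion. Per the labels, the authors used FastQC 0.11.5, Trim Galore 0.5.0, STAR 2.6.0c and HTSeq 0.6.1p2 with GRCm38.p6, and they deposited raw counts of reads per gene without normalization. Whether counting used the strand is not given in the sources used here. The authors also deposited FPKM per tumor, used here only for levels between genes. Their own fold changes and p-values, in 2 deposited tables, were not used.

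Counts were analysed in R 4.3.3 with edgeR 4.0.16 (TMM, filterByExpr by cohort, quasi-likelihood test without covariates, Benjamini-Hochberg adjustment, threshold 0.05), on all 21 tumors. CPM values are TMM-scaled, and log2 CPM uses a prior count of 2. SEs were derived from the F statistic. Single genes were also tested by 2-sided exact permutation over all 293930 labelings, unadjusted. Alternatives were DESeq2 1.42.0, voom of limma 3.58.1 with mouse as a random effect, and changes of filter, scaling, tumors and covariates. Exact tests on mouse means, with each tumor left out and over all tested genes were chosen after seeing the data. The edgeR, DESeq2 and voom tests of cohort, without mouse or other covariates, were checked on simulated counts. The other steps were not checked in that way. Total counts of 47309780 to 100741339 set the depth, and a count of 0 allows up to 3 counts, for counting error only.

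The 9 genes and all gene lists were chosen with earlier results of these data known. Genes are named by a rule: the 9 regulators, *Rhoc* and *Erbb2*, the smallest p in each direction in each pathway list, the first 2 genes of each list of cell type markers, and the 2 genes with the highest r for each regulator. A few genes that this rule names are not reported here. Where tumors share a mouse, p-values over tumors also measure the spread within mice. The title of R-18 names no mouse, so it was counted as its own, and the mouse named for R-21 is the one the study lists for another RhoC tumor.

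Of the marker genes not given in the results, edgeR's adjusted p was 0.385 for *Krt5*, 0.310 for *Krt14*, 0.0536 for *Krt10*, 0.254 for *Col1a1*, 0.429 for *Col1a2*, 0.751 for *Pecam1*, 0.803 for *Cdh5*, 0.723 for *Adgre1*, 0.609 for *Csf1r*, 0.884 for *Cd3d*, 0.942 for *Cd3e* and 0.564 for *Acta1*. *Krt1*, *Cd79a*, *Adipoq*, *Plin1* and *Ckm* did not pass the filter. In the lists for basal epithelium, squamous keratinocytes, fibroblasts, endothelial cells, macrophages, T cells, B and plasma cells, adipocytes and skeletal muscle, 0 of 40 tested genes were called by edgeR, and 5 (12.5%) had an unadjusted p under 0.05, beside 20.5% of all tested genes.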

Additional observations from a re-analysis of the deposited data

Results flagged for a closer look

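Single control tumors lay far from the other 8 for 3 of the 9 genes, by the gap to the nearest tumor divided by the range of CPM. Chance marks about 1 group in 20 under this rule for normally distributed values, whereas these CPM values are skewed. On log2 CPM the same ratio was 0.23 for *Pgr*, 0.15 for *Foxa1* and 0.21 for *Cited1*, below the critical value, so none of the 3 stood apart on that scale. *Pgr* was at 13.6 CPM in N-17, and the next control, N-4, was at 3.30. *Foxa1* was at 8.76 CPM in N-15, which also had the lowest *Erbb2* of all tumors at 57.9 CPM, and the next control, N-17, was at 4.08. *Cited1* was at 29.4 CPM in N-8, the tumor with the highest *Stat5a*, and the next, N-17, was at 7.83.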

How the results depend on the processing

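The number of regulators called was 1 with DESeq2 and 1 with only the Gata4(loxP/+) controls, *Foxa1* in both (log2 fold changes 4.03 and 6.14), and 0 in the other alternatives and in each fit without 1 tumor. Of pathway list genes, 6 were called with DESeq2, 2 (*Socs1* and *Esrra*) with only the Gata4(loxP/+) controls, 0 to 2 with 1 tumor left out (*Socs1* and *Esrra* without N-15, *Muc1* without R-18), and 0 otherwise. Over all genes 43 were called, and 1206 with DESeq2, 438 with only the Gata4(loxP/+) controls, 27 with library size in place of TMM, 26 without the squamous cell carcinomas, 19 without N-1, 3 with counts summed by mouse, 3 with voom (within-mouse correlation 0.27), 3 without mouse P497, and 14 (without N-9) to 346 (without N-15) with 1 tumor left out. The cause was not tested.

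*Prlr* turned to -0.28 with counts summed by mouse, -0.17 with voom, -0.070 with only the Gata4(loxP/+) controls, -0.54 without P497 and -0.44 without the squamous cell carcinomas, and lay between -0.47 (without R-14) and 0.51 (without N-4) with 1 tumor left out. Its difference of mean log2 CPM, -0.061, lay between -0.31 and 0.18 with 1 tumor left out. *Tfap2a* turned to -0.035, -0.049 and -0.031 with only the Gata4(loxP/+) controls, without the squamous cell carcinomas and with the replicate block. The other 7 genes kept their direction. Over mice in place of tumors, the difference of mean log2 CPM was 0.76 for *Esr1* and 3.04 for *Foxa1*.

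The replicate block called 0 genes by edgeR. An unadjusted p under 0.05 was reached by 3 of the 9 regulators, *Esr1*, *Pgr* and *Cited1*, beside 1363 of all 19315 tested genes, a smaller share. Only numbers 1, 6, 7 and 15 occur in both cohorts, the correlations of deviations were -0.24, -0.18, -0.0029 and 0.022, and so the numbers do not pair tumors.

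Low counts limit *Foxa1*, *Pgr* and *Cited1*, where 10 of their values rest on 3 counts or fewer.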
